A study of Mus musculus with 3 samples.

Results

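The regions described are HNF4A binding sites of the fetal mouse liver that lie far from any FOXA2 site. They were selected by position alone: a nuclear HNF4A peak entered when its centre was more than 100 kb from every FOXA2 peak centre on its chromosome and its edge more than 10 kb from every input region. This gave 2126 of the 11700 nuclear HNF4A peaks, or 18.2% (95% Wilson interval 17.5 to 18.9%), called remote peaks from here on. The cells were DLK1-positive hepatoblasts, precursors that give rise to hepatocytes and cholangiocytes, enriched by magnetic sorting from pooled livers of wildtype C57BL/6 embryos at day 14.5. All 3 libraries, HNF4A, FOXA2 and input without an antibody, came from such cells. With 1 library per antibody there is no replicate check, and no difference below was tested. Peak lists hold no expression values, so the sort could not be compared with marker genes.

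HNF4A is a nuclear receptor that binds DNA as a homodimer, at direct repeats of a short hormone response motif, and activates genes of lipid transport, plasma proteins and metabolism in hepatocytes. FOXA2 is a forkhead factor that can engage nucleosomal DNA and helps to open liver enhancers early in development. Both factors often meet at the same enhancers in liver. HNF4A also acts in kidney, intestine and pancreas.

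Remoteness is a statement about deposited lists, not about absence of FOXA2. The FOXA2 list ends at a score of 11, and the depth behind that threshold is unknown. When only FOXA2 peaks with at least that list's median score of 15 were kept, 3923 HNF4A peaks were remote. The condition on input mattered little, since it left out 5 peaks, with scores of 16 to 63. The nearest FOXA2 peaks of the remote set, 1235 different ones, had a median score of 15 (interval 15 to 16), against 15 (15 to 15) over all 9338 FOXA2 peaks. Of them 28.3% (25.8 to 30.8%) overlapped an HNF4A peak, against 30.7% (29.8 to 31.7%) of the whole FOXA2 list. Fewer of them lay within 10 kb of an input region, 1.13% (0.676 to 1.89%) against 5.46% (5.02 to 5.94%).

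Most remote peaks were not far past the threshold. The median distance to the nearest FOXA2 centre was 189 kb (interquartile range 134 to 294 kb). Between 100 and 150 kb lay 729 peaks, 34.3% of the set, and between 150 and 200 kb another 417. At 200 to 300 kb there were 468, and at 300 to 500 kb 296. The tail was thin, with 158 peaks at 500 to 1000 kb and 58, or 2.73%, beyond 1000 kb.

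The peaks on each side of the threshold overlapped in score. The 3 peaks just inside it lay 100044, 100072 and 100197 bp from FOXA2, on chromosomes 6, 11 and 6, with scores of 31, 20 and 29. The 3 just outside lay at 99958, 99945 and 99863 bp, on chromosomes 4, 4 and 13, with scores of 23, 19 and 36.

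The farthest remote peak, on chromosome 2 at 87847641 to 87848288 (mm9), lay 2914224 bp from FOXA2 and had a score of 18. Next came chromosome 16 at 69904581 to 69904921, at 2773115 bp with a score of 33. Both were isolated, with the next HNF4A centre 2557548 and 2783317 bp away. The following pair, on chromosome 17 at 59151697 to 59152051 and 59152584 to 59153039, formed a doublet with centres 937 bp apart, 1953427 and 1954364 bp from FOXA2, with scores of 27 and 34. The fifth lay on chromosome 4 at 78140015 to 78140409, at 1860107 bp with a score of 28. The highest of these 5 scores, 34, ranked 2653 in the nuclear HNF4A list.

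Sequence far from FOXA2 is most of the genome but holds few HNF4A peaks. Of the sequence spanned by the lists and not beside input, 64.4%, or 1690 Mb, was more than 100 kb from FOXA2, and it held 1.26 HNF4A peaks per Mb. The remaining 933 Mb held 10.2 per Mb. The ratio was 0.123 (interval 0.118 to 0.129). It was 0.176 (0.167 to 0.184) when HNF4A peaks that overlap FOXA2 were left out of the nearer class. The spanned sequence includes assembly gaps and repeats in which no peak can be called, and their part in the ratio was not tested.

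HNF4A density fell steeply close to FOXA2, from 1171 peaks per Mb within 0.1 kb of a centre to 24.1 at 0.5 to 1 kb. Farther out it declined more slowly. The distance classes on each side of 100 kb are too wide to show whether there is a break there. Density was 11.5 peaks per Mb at 5 to 10 kb from a FOXA2 centre, 6.39 at 20 to 50 kb and 4.16 at 50 to 100 kb. It went on to 2.72 at 100 to 200 kb, 1.33 at 200 to 500 kb, 0.459 at 500 to 1000 kb and 0.167 beyond. The median score did not follow this decline. It was 28 (interval 28 to 29) for peaks centred within 0.1 kb of a FOXA2 centre and 25 (24 to 26) at 0.1 to 0.5 kb. From 0.5 kb outward every distance class had a median between 21 and 23, remote ones included. The upper end of the scores did thin out with distance: a score of at least 47 was held by 12.1% (8.36 to 17.3%) of peaks at 0.5 to 1 kb, 10.2% (8.56 to 12.0%) at 10 to 20 kb and 6.76% (5.58 to 8.17%) at 50 to 100 kb. The remote classes followed on, with 6.28% (5.02 to 7.84%) at 100 to 200 kb and 5.17% (1.77 to 14.1%) beyond 1000 kb. The mean score went from 29.0 at 0.5 to 1 kb to 25.6 beyond 1000 kb.

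**Figure D1:**
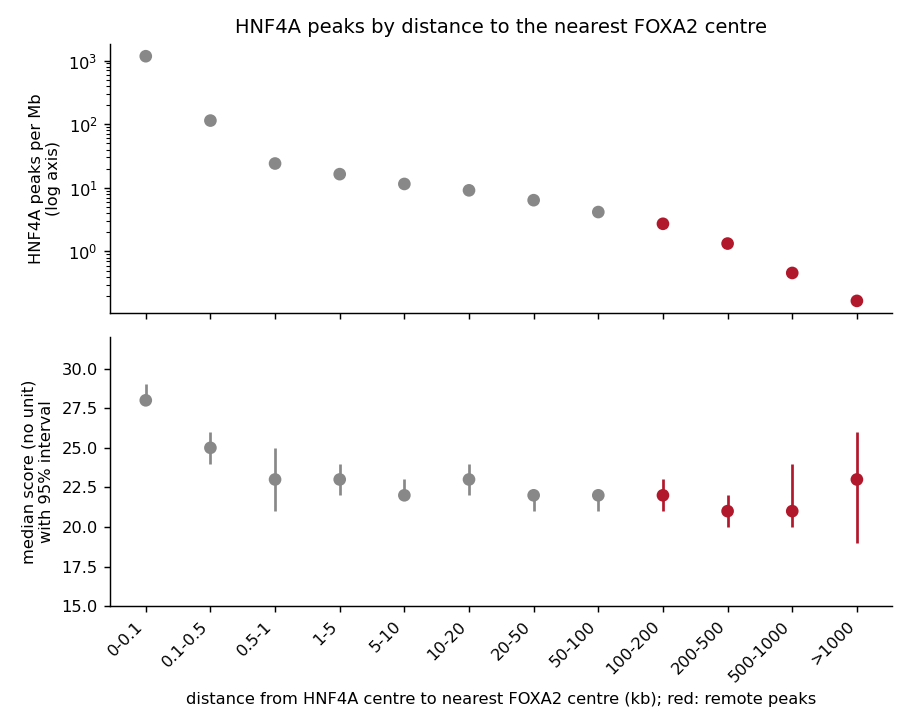
HNF4A peaks per Mb (upper panel, log axis) and median HNF4A score with its 95% interval (lower panel, axis from 15) by distance to the nearest FOXA2 centre in kb. Red points are remote peaks; density is lower in each farther class, from 1171 per Mb to 0.167, while the median score stays between 21 and 23 from 0.5 kb outward.

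The authors' score, which ranks peaks within the HNF4A list, was thus low for remote peaks compared with shared sites and close to that of other HNF4A peaks without FOXA2 overlap. Remote peaks had a median score of 22 (interval 21 to 22; interquartile range 18 to 29; range 16 to 140). The 6711 peaks without overlap but within 100 kb of FOXA2 had a median of 22 (22 to 23; interquartile range 18 to 31). The 2858 peaks overlapping FOXA2 by at least 1 bp had a median of 27 (26 to 28; interquartile range 20 to 40). With ties split evenly, a remote peak outranked a nearby non-overlapping one in 47.6% of pairs and an overlapping one in 36.3%.

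Remote and nearby peaks differed mainly in their upper ends, while overlapping peaks scored higher at both ends. A score of at least 47 was held by 10.6% of all nuclear HNF4A peaks. Among remote peaks 133 reached it, 6.26% (5.30 to 7.37%), against 9.12% (8.45 to 9.83%) of the nearby and 17.2% (15.9 to 18.6%) of the overlapping peaks. Peaks 50 to 100 kb from FOXA2 reached a score of 47 in 6.76% (5.58 to 8.17%), a value within the remote interval. At 20 to 50 kb the share was 8.72% (7.54 to 10.1%). These differences were not tested. At the other end, 10.1% of all nuclear peaks stood at the lowest score, 16, as did 253 remote peaks, or 11.9% (10.6 to 13.3%). The share was 10.9% (10.2 to 11.7%) for nearby and 6.79% (5.92 to 7.77%) for overlapping peaks. Seen from the score side, remote peaks made up 21.4% (19.2 to 23.8%) of peaks at 16, 20.2% (17.9 to 22.7%) at scores of 27 to 30, and 10.9% (9.19 to 12.8%) at 48 to 161.

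**Figure D2:**
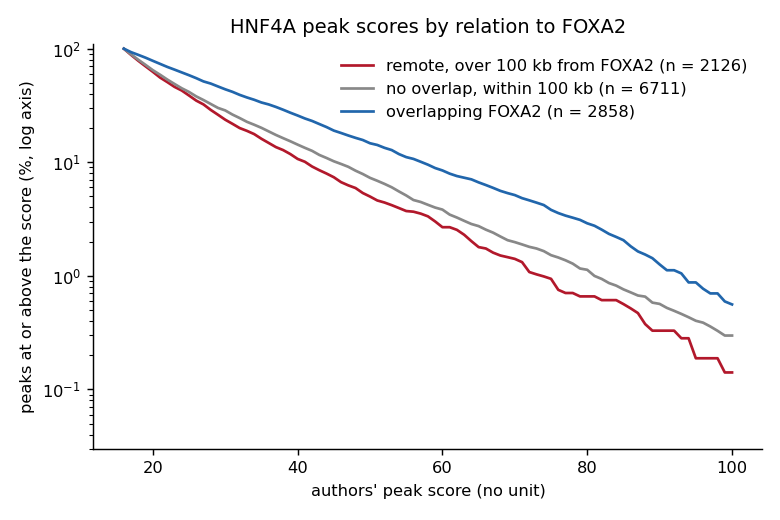
Percent of peaks (log axis) at or above each authors' score from 16 to 100, for remote peaks, peaks without overlap within 100 kb, and peaks overlapping FOXA2. At a score of 47 the curves stand at 6.26%, 9.12% and 17.2%.

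High scores nevertheless occurred without any FOXA2 peak nearby. Of the 102 nuclear HNF4A peaks with a score of at least 87, 10 were remote, 9.80% (5.41 to 17.1%). This is below the remote share of all nuclear HNF4A peaks, 18.2%. These 10 lay on 7 chromosomes and were 315 to 411 bp wide. Remote peaks of 50 or more had a median of 396 bp, with an interquartile range of 362 to 439 bp. The highest, on chromosome 7 at 31260016 to 31260411, had a score of 140, the fourth rank of the whole nuclear list, and lay 116769 bp from FOXA2. The second, on chromosome 3 at 66380620 to 66380976 (score 107), lay 497916 bp from FOXA2 and 388244 bp from the next HNF4A centre, so it stood alone for both factors. The third, on chromosome 4 at 141287711 to 141288121 (score 102), belonged to a group of 6 remote peaks described below. On chromosome 17, the peak at 49444471 to 49444824 (score 98) was 566610 bp from FOXA2.

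The other 6 had scores of 87 to 94. Chromosome 3 at 37100044 to 37100358 and chromosome 5 at 92633199 to 92633548 both scored 94, at 264274 and 154762 bp from FOXA2. Chromosome 4 at 14949337 to 14949706 scored 92, at 127357 bp. Chromosome 3 at 95122442 to 95122816 scored 88 and was the closest of the 10, at 104952 bp, and its nearest FOXA2 peak had a score of 54. Chromosome 14 at 37784389 to 37784790 and chromosome 19 at 14333723 to 14334088 both scored 87. The former was the most distant of the 10, at 913909 bp, and the latter lay at 243034 bp and was 1621220 bp from the next HNF4A centre. For 9 of the 10 the nearest FOXA2 peak had a score of 18 or less, and for 3 it had the lowest score of the FOXA2 list. Such scores are common: 65.8% of all FOXA2 peaks and 64.5% of those nearest to any remote peak stood at 18 or less, and 16.5% and 15.9% at the lowest score.

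Widths hardly separated the classes. Remote peaks had a median width of 426 bp (interval 421 to 432; interquartile range 365 to 522 bp), nearby non-overlapping peaks 427 bp (423 to 430) and overlapping peaks 439 bp (434 to 445). Within the remote set the median was 437 bp (421 to 454) at a score of 16 and 396 bp (381 to 413) at 50 or more, and these intervals did not overlap. Nearby peaks of 50 or more also had a median of 396 bp (388 to 402), and overlapping ones 405 bp (399 to 414). Peaks over 1 kb wide were 0.752% of all nuclear HNF4A peaks and 13 of the remote ones, 0.611% (0.358 to 1.04%). Those 13 had scores of 16 to 29, and the widest spanned 1256 bp on chromosome 6 at 82812148 to 82813403 (score 21).

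Remote peaks lay farther from their nearest HNF4A neighbour than the other classes did. The nearest other HNF4A centre lay a median of 54.3 kb away (interval 47.6 to 62.0 kb; interquartile range 10.7 to 162 kb), against 14.0 kb (13.4 to 14.7) for nearby non-overlapping and 15.5 kb (14.4 to 16.8) for overlapping peaks. Another HNF4A centre within 12500 bp was found for 42.8% of all nuclear peaks and for 575 remote peaks, 27.0% (25.2 to 29.0%). The closest neighbour of those 575 was another remote peak in 567 cases. The rule nearly fixes this count, since an HNF4A centre that close to a remote peak is itself far from FOXA2. HNF4A peaks were also sparser there, at 1.26 per Mb more than 100 kb from FOXA2 against 10.2 per Mb nearer. The part of this density in the contrast was not tested. Peaks 50 to 100 kb from a FOXA2 centre had an HNF4A neighbour within 12500 bp in 28.4% (26.1 to 30.7%), a value within the interval of the remote set.

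**Figure D3:**
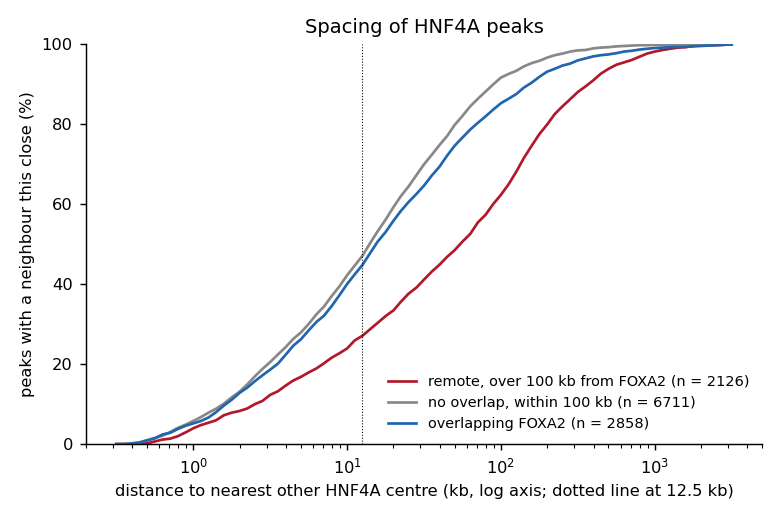
Percent of peaks whose nearest other HNF4A centre lies within a given distance (kb, log axis), for remote peaks, peaks without overlap within 100 kb, and peaks overlapping FOXA2. At the dotted line, 12500 bp, 27.0%, 47.0% and 44.6% of the classes have a neighbour.

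Remote peaks with a score of 33 or more had company more often than weaker ones. At a score of 16, 24.1% had an HNF4A neighbour within 12500 bp, with 24.2% at 17 to 22 and 25.2% at 23 to 32. At 33 to 49 it was 35.5%, and among the 106 peaks at 50 or more 44.3%. No intervals were computed for these shares. The median neighbour distance went from 71.8 to 19.0 kb between the lowest and the highest of these bands. Between the lowest and the highest band the share also rose for nearby non-overlapping peaks, from 44.4% to 57.3%, and for overlapping peaks, from 41.8% to 58.3%. At 17 to 22 these classes stood at 42.2% and 40.4%, so the rise was not even.

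Joined at gaps of at most 12500 bp, the remote peaks fell into 1546 single peaks, 186 pairs and 61 groups of 3 or more with 208 peaks between them. Single peaks were thus 72.7% of the remote set, against 62.2% of the nearby and 83.1% of the overlapping peaks when each class was joined on its own. Groups of 3 or more held 9.78%, 13.8% and 2.66% of these classes, so the overlapping peaks were the least grouped with one another. With all nuclear HNF4A peaks joined together, 56.3% were single and 19.3% lay in groups of 3 or more. Joining a class on its own leaves out neighbours of other classes, so these shares do not rank the classes by isolation. With every HNF4A peak counted, 44.6% of overlapping and 27% of remote peaks had a neighbour within 12500 bp. Paired centres were a median of 4.21 kb apart (interquartile range 1.54 to 7.82 kb), and 26 pairs lay within 1 kb. Single peaks had a median of 21 (21 to 22) and grouped peaks of 23 (22 to 24).

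The largest group held 11 peaks within 23.8 kb on chromosome 18, at 9485314 to 9509156, and was 210 kb from the nearest FOXA2 centre. Its peaks fell into a run of 8 on the left, with scores of 39, 25, 44, 22, 16, 21, 19 and 16, and 3 on the right with 45, 23 and 23. No peak of the group passed 45, so none reached the score of 47 held by 10.6% of nuclear HNF4A peaks. The group's median score was 23, as for all grouped peaks. Its highest score was above 34, the median highest score of the 247 groups of 2 or more. Of those groups 186 were pairs, and groups with more peaks have more chances of a high one, so sizes are unlike. Neighbouring centres were a median of 1.17 kb apart, and the peaks covered 23.7% of the span. The 1 broad peak in it was 1075 bp wide and had a score of 19.

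The next group, on chromosome 4 at 141277789 to 141311065, had 6 peaks within 33.3 kb. Their scores were 20, 63, 102, 34, 20 and 16 from left to right, so a pair of strong peaks had weaker ones on both sides. The third, on chromosome 7 at 54297491 to 54318070, had 5 peaks with scores of 17 to 30. Of the 12 groups of 4, the ones with the highest peak were on chromosome 4 at 141608277 to 141627345, with 22, 23, 39 and 73, and on chromosome 17 at 57367519 to 57372888. The latter was compact, with 4 peaks of 18 to 59 in 5.37 kb.

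**Figure D4:**
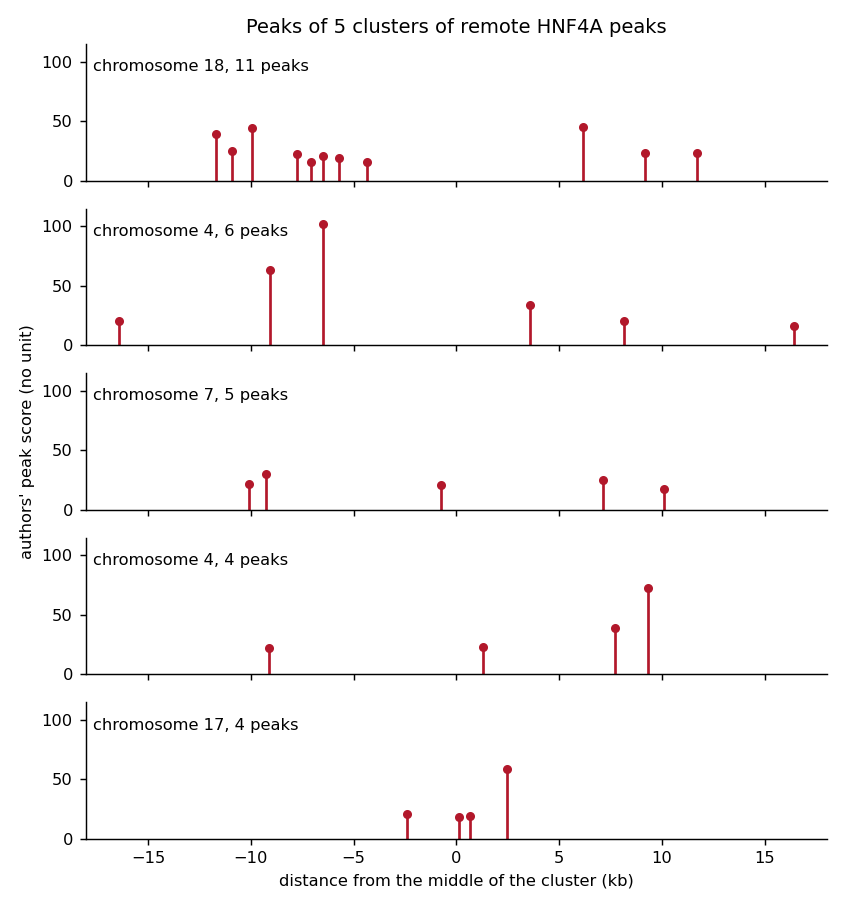
Authors' scores of the peaks in 5 groups of remote HNF4A peaks, against distance from the middle of each group in kb. The chromosome 18 group has 11 peaks of 16 to 45; the chromosome 4 group of 6 reaches 102.

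Both chromosome 4 groups lay in the same stretch without FOXA2. Stretches were taken between consecutive FOXA2 centres more than 200 kb apart, the least length that can hold a remote peak. Between FOXA2 centres at 141073779 and 141729922, a stretch of 0.656 Mb, chromosome 4 had 23 HNF4A peaks, of which 14 were remote, the most of any stretch. Besides both groups there were 4 single peaks, with scores of 23, 48, 46 and 22. The median score of the 14 was 28.5, against 22 over the whole remote set. The stretch around the chromosome 18 group, 0.510 Mb long, held 12 remote peaks, and the only 1 outside the group scored 28. A stretch of 3.07 Mb on chromosome 1, from 93852987 to 96926117, also held 12, with a highest score of 34.

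Most stretches held no remote peak, chiefly the short ones. Of 2827 stretches, 1042, or 36.9%, held at least 1 remote peak, 562 held exactly 1, 81 held 5 or more and 6 held 10 or more. A remote peak was present in 15.1% of stretches of 0.2 to 0.3 Mb, 36.6% of those of 0.3 to 0.5 Mb, and 50.1%, 50.3% and 52.5% of those of 0.5 to 1, 1 to 2 and over 2 Mb. Per length, shorter stretches were denser: past 100 kb from either end, those of 0.2 to 0.3 Mb held 4.25 remote peaks per Mb, those of 0.5 to 1 Mb 2.37, those of 1 to 2 Mb 0.856 and those over 2 Mb 0.390. Of the 8 longest, 7.01 to 12.1 Mb, 6 held no remote peak. The longest, on chromosome X from 19985591 to 32099680, held 4, with a highest score of 28. All 8 together held 12 HNF4A peaks, remote or not. A further 11 remote peaks lay outside the first or last FOXA2 peak of a chromosome.

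Every chromosome but Y held remote peaks. On the autosomes their part of the HNF4A list ranged from 11.9% (9.31 to 15.2%) on chromosome 12 to 22.9% (19.8 to 26.3%) on chromosome 7, with a median of 17% over 19 autosomes. Relative to the sequence more than 100 kb from FOXA2, chromosome 11 was the richest, with 157 remote peaks at 2.40 per Mb, and chromosome 12 the poorest autosome, with 56 at 0.698 per Mb. The median score of remote peaks differed little between autosomes, from 20 to 24. Autosomes with more sequence far from FOXA2 did not have a larger remote part, with a Spearman rho of -0.37 across the 19, which share the same libraries.

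Chromosome X stood apart by having few peaks of either kind. There 42 of 132 HNF4A peaks were remote, 31.8% (24.5 to 40.2%), and 87.4% of its sequence was over 100 kb from FOXA2. At 0.291 remote peaks per Mb of that sequence it was the poorest chromosome that had any, and their median score was 18. On Y, 0 of 10 HNF4A peaks were remote (Wilson interval up to 27.8%).

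**Figure D5:**
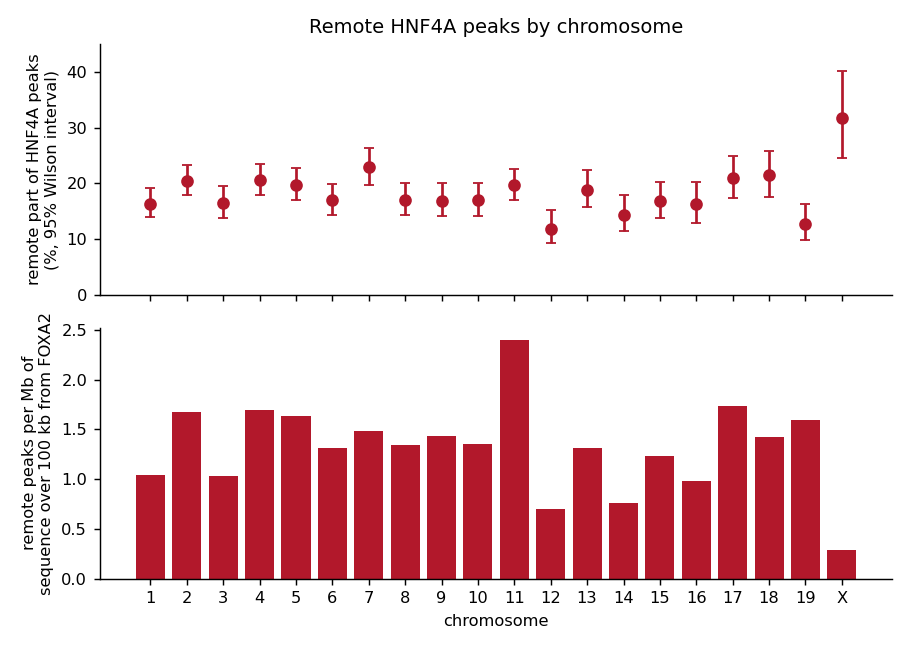
Remote part of the HNF4A peaks of each chromosome in percent with 95% Wilson intervals (upper panel), and remote peaks per Mb of sequence over 100 kb from FOXA2 (lower panel), without Y. Chromosome X has the largest remote part, 31.8%, and the lowest density, 0.291 per Mb.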

How the data were processed

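HNF4A and FOXA2 ChIP-seq and input chromatin were measured in 1 library each. For each library the authors deposited a separate region list, on mm9 per the submitters' processing notes. Each deposited line holds a chromosome, a start and an end (taken as 1-based, both ends included), and a whole-number score without a stated definition. The aligner, caller, threshold and library depth were not given in sources used here.

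Chromosome names were matched after removing the chr prefix, and mitochondrial regions were left out. Centre distances, edge gaps, groups joined at gaps of at most 12500 bp, and the length of sequence at each distance from FOXA2 (sampled every 100 bp, without sequence within 10 kb of input) were computed with Python 3.11.15, numpy 2.4.6, pandas 2.3.3 and scipy 1.17.1, and plotted with matplotlib 3.10.9. Centre distances and the joining of groups were tested on simulated peak lists. Centre distances were also checked by direct calculation on peaks drawn from the real lists. Edge gaps and the length of sequence at each distance were not tested in this way. Shares carry 95% Wilson intervals and medians 95% order-statistic intervals. Both cover counting error only and are too narrow where neighbouring peaks depend on each other. With 1 library per group no test was run.

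Regions named are the 10 members of highest score, the 5 farthest from FOXA2, the 5 groups with the most members (ties by highest score) and the 3 peaks on each side of the distance threshold. Other named regions were chosen after their values were seen. The members and rules were chosen with earlier results of these data known. Alternatives covered the distances, both thresholds, the input condition, the sex chromosomes and the linking distance. Gene names, start sites, motifs, gene lists and peak sequences were planned and were not analysed, because the reference tables used here are on GRCm38 and the peaks on mm9.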

Additional observations from a re-analysis of the deposited data

How the results depend on the processing

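Of 61 recomputed values, 40 stayed within the interval of the reported value (for counts, within 1.5 times) and 21 did not. A FOXA2 distance of 50 kb gave 3575 remote peaks and 93 groups of 3 or more. At 200 kb there were 980 peaks, 22 groups, a median width of 419 bp and 24.4% with a neighbour within 12500 bp. With HNF4A peaks of at least the median score there were 981 remote peaks and 14 groups, with a median score of 30, 13.6% at 47 or more, a median width of 415 bp and 18.9% with a neighbour; this setting removes the low scores by construction. With FOXA2 peaks of at least the median score there were 3923 remote peaks, 134 groups, 30.7% with a neighbour and 7.37% at 47 or more, which equals the upper bound of the reported share at the digits printed. Linking at 5 kb gave 16.7% with a neighbour and 20 groups, and at 50 kb 48.4% and 137. Without overlapping peaks the density ratio was 0.176. Distances between edges, the input conditions, FOXA2 peaks beside input, sex chromosomes and chromosome ends moved no value past these bounds. Library depth is unknown, so how many remote sites would have a FOXA2 peak at greater depth cannot be given. Start sites, motifs and gene lists were not run. No paired analysis was possible because each group is 1 library.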
